A study of Mus musculus with 10 samples.

Results

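The 77 genes described here are the molecular chaperones that assist protein folding, with 2 cold-inducible RNA-binding protein genes, as measured in lineage-depleted bone marrow of male and female mice. They were taken by gene symbol from the 25178 genes of the deposited count table. The symbols cover the HSP70, HSP110, HSP90, HSP60, HSP10 and small heat shock protein families, the J-domain proteins of the DNAJA, DNAJB and DNAJC classes and the subunits of the cytosolic chaperonin CCT, without pseudogenes, and in addition Cirbp and Rbm3. The rule uses no measured value, but members and lists were chosen with earlier results of these data known.

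The study asked how hematopoiesis differs between the sexes. It compared 5 female with 5 male C57/BL6 mice, an inbred strain, at steady state and with no treatment. The sources used here do not give the age of the mice, the time of day or the time from marrow to lysis. Marrow of 1 hindlimb per mouse was flushed, cells with markers of mature lineages were removed on magnetic beads, and the remaining cells, labelled hematopoietic stem and progenitor cells, gave 1 RNA library per mouse. The n of 5 per sex therefore counts animals.

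Chaperones bind unfolded or partly folded proteins and release them in cycles driven by ATP. J-domain proteins deliver clients to HSP70 and start its ATP hydrolysis, HSP110 proteins exchange its nucleotide, HSP90 acts later on kinases, receptors and other near-folded clients, and the ring chaperonins CCT in the cytosol and HSP60 with HSP10 in mitochondria enclose their clients. Heat and proteotoxic stress raise the inducible members through the transcription factor HSF1. Cirbp and Rbm3 bind RNA and are known for being induced by mild cooling, the opposite direction of temperature. Hematopoietic stem cells are known for a low rate of protein synthesis and for sensitivity to misfolded protein.

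Library totals lay between 20754101 and 24759687 counts, and levels are given in CPM, counts scaled to a common library size with TMM factors, which balance the libraries over most genes. The stem and progenitor markers fixed for the check of the label were measured for 12 of 12 genes, with a summed level of 635 to 1029 CPM per library. T and NK cell markers summed to 2.18 to 5.79 CPM. Mature neutrophil markers were uneven, with a summed level of 8729 CPM in male replicate 1 and 2698 CPM in male replicate 2, against 211 to 1363 CPM in the other 8 libraries. Male replicate 2 was also the library with the lowest TMM factor, at 0.886. Results of the members that rest on these libraries are also given without them. In bulk RNA, fewer cells of a type and less RNA per cell cannot be told apart.

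Of the 77 members 69 had enough counts to be tested. The 8 others were the HSP70 relatives Hspa12a and Hspa1l, the small heat shock protein genes Hspb1, Hspb8 and Hspb9, the J-domain genes Dnajb7 and Dnajb8, and the chaperonin gene Cct6b. They had between 6 counts (Dnajb7) and 86 counts (Hspb1) over all 10 libraries. Fitted without a filter, none of them was called by edgeR, and Hspa12a (8 counts in females, 30 in males) and Cct6b (16 and 39 counts) had an unadjusted p under 0.05 on the side of males.

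The constitutive cytosolic chaperones were the most abundant members. Per kilobase of summed exon, the mean level over the 10 mice was 1243 CPM per kb for Hsp90ab1, the constitutive cytosolic HSP90, 827 CPM per kb for Hspa8, the constitutive cytosolic HSP70 (Hsc70), 426 CPM per kb for Hsp90aa1, the inducible HSP90, and 319 CPM per kb for Hspd1, the mitochondrial HSP60. The chaperonin subunits ranged from 246 CPM per kb for Cct2 to 85.3 CPM per kb for Cct3. Before division by length their means were 630 CPM for Cct2, with 2557 exon bases, and 543 CPM for Cct3, with 6370. Summed exon takes in all annotated exons of a gene, so this range depends on the annotation. CCT is assembled from equal numbers of 8 subunits, and the 8 tested genes Tcp1, Cct2, Cct3, Cct4, Cct5, Cct6a, Cct7 and Cct8 are the genes of these subunits. The endoplasmic reticulum HSP70 Hspa5 (BiP) was at 145 CPM per kb, the mitochondrial HSP70 Hspa9 (mortalin) at 138 CPM per kb and Rbm3 at 142 CPM per kb. The differences among these 3 neighbours in the order are smaller than the spread of Rbm3 between mice.

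**Figure D1:**
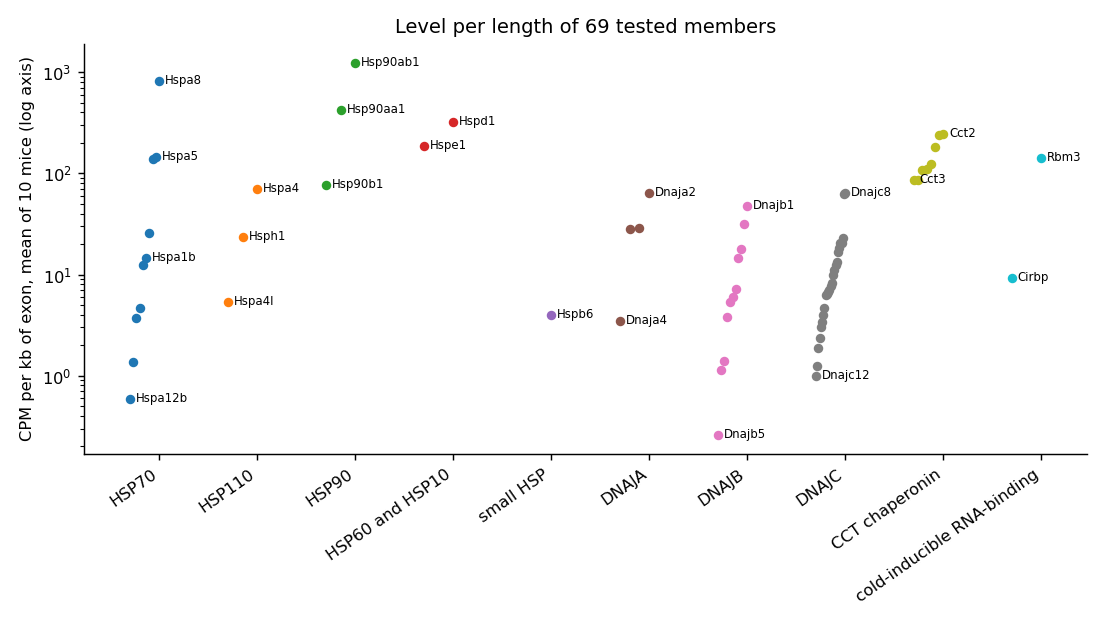
Mean level of the 69 tested members over 10 mice, in CPM per kilobase of summed exon on a log axis, by class; each point is 1 gene. Hsp90ab1 at 1243 and Hspa8 at 827 CPM per kb head the plot, the CCT subunits lie between 85.3 and 246 CPM per kb, and Dnajb5 is lowest at 0.257 CPM per kb.

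The J-domain genes lay below Hspa8, Hspa5 and Hspa9 in level per length, and several lay above the inducible Hspa1a (12.3 CPM per kb) and Hspa1b (14.6 CPM per kb). Dnaja2, a general cofactor of Hspa8, was at 63.8 CPM per kb, Dnajc8, a J-domain protein of the spliceosome, at 63.3 CPM per kb, Dnajc9, which serves histones, at 63.1 CPM per kb, and Dnajb1 (Hsp40), the stress-inducible partner of HSP70, at 47.5 CPM per kb. The lowest tested member was Dnajb5 at 0.257 CPM per kb. As a share of all counts, the 77 members together held 2.06% ± 0.0782 per female library and 1.95% ± 0.0592 per male library (SD, n = 5 mice). HSP90 genes held 0.591% ± 0.0407 in females and 0.553% ± 0.0336 in males, HSP70 genes 0.540% ± 0.0271 and 0.461% ± 0.0223, and CCT genes 0.439% ± 0.0220 and 0.444% ± 0.0213. The share of the HSP70 class was at least 0.510% in each female and at most 0.491% in each male. That of the HSP110 class was at least 0.0604% in each female and at most 0.0580% in each male. How often shares of other gene sets separate in this way was not examined. These shares are of all counts, without TMM scaling, and the TMM-scaled level of Hspa8, given further on, overlapped between the sexes.

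No member passed the test between the sexes over all genes. The quasi-likelihood test of edgeR, with Benjamini-Hochberg adjustment over 14674 genes, called 0 of 69 members at an adjusted p under 0.05, where it called 0.0545% of all genes. At an unadjusted p under 0.05, 2 members were higher in females (Hsph1 and Hspa4l) and 3 lower (Cirbp, Rbm3 and Dnajb13). Among all genes 3.76% were higher and 5.41% lower, so that the members, with 7.25% in either direction, were near the background of 9.17%. DESeq2 called 2 of the members, Hsph1 and Cirbp, where it called 0.361% of all genes. The log2 fold change of females against males was below 0 for 39 of 69 members, against 52.0% of all genes, with a median of -0.02 (all genes -0.01); with libraries scaled by their totals alone it was below 0 for 28 members. For 60 of the 69 members the fold change was smaller than 2 SE.

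**Figure D2:**
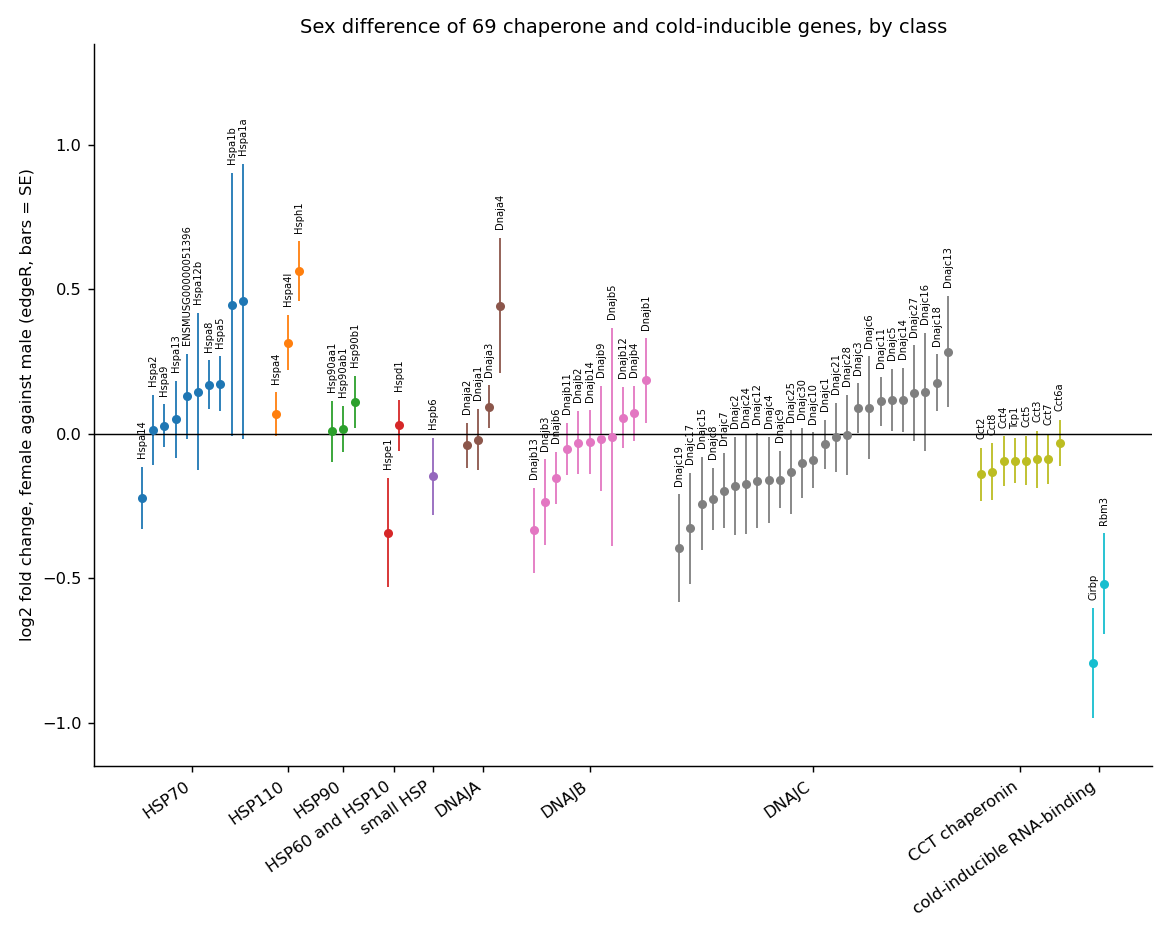
Log2 fold change of females against males from edgeR for each of the 69 tested members, by class; points are estimates, bars 1 SE, n = 5 mice per sex. The 3 HSP110 genes lie above 0 in the plot and Cirbp (-0.79) and Rbm3 (-0.52) lie lowest, while the 8 CCT genes sit close together just below 0 (6 of 8 below 0 without male replicates 1 and 2).

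The HSP110 genes, nucleotide exchange factors of HSP70 that also hold unfolded proteins in solution, had the clearest separation of the sexes on the side of females. Hsph1 (HSP105), the heat-inducible member of this family (ENSMUSG00000029657, chromosome 5: 149614287 to 149636376, GRCm38), was at 179, 218, 238, 188 and 192 CPM in female replicates 1 to 5. In male replicates 1 to 5 it was at 144, 118, 150, 129 and 146 CPM. All 5 females lay above all 5 males, which was so for 1 of the 69 members and for 1.06% of all genes. Counting both directions, the sexes did not overlap for 2.90% of the members and 1.93% of all genes. The means were 203 ± 24.3 and 137 ± 13.4 CPM (SD, n = 5 each), with a log2 fold change of 0.56 (SE 0.10, edgeR adjusted p = 0.170). The difference of the means is larger than the spread within either sex, although the adjusted p does not pass over all genes. It was of similar size without male replicates 1 and 2 (0.52, edgeR adjusted p = 0.0811), and the DESeq2 adjusted p was 2.16e-04. With 1 library left out, the edgeR adjusted p was between 0.0927 and 0.481. With the replicate number as a block it was 0.637.

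The sequence before the start of Hsph1 is shown because HSF1 acts through heat shock elements, inverted repeats of GAA units. The RefSeq promoter table (GRCm38.p6) places 1 pair of units of the tail-to-tail form, TTCNNGAA, 33 bases before the RefSeq start, and none of the form GAANNTTC. The pair lies inside the gene bounds given above, which end at 149636376. It is thus before the RefSeq start but past the start annotated in GENCODE vM21. The first line gives 210 bases of the minus strand at chr5:149636377-149636586, upstream of all annotated exons, and the second the 30 bases at chr5:149636351-149636380 around the pair, in capitals.
Hsph1 upstream: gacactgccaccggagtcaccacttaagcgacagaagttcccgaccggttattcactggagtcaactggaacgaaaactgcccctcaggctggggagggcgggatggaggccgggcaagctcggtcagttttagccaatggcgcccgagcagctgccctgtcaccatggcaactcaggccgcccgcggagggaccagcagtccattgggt
Hsph1 element: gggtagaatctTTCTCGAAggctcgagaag

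Hspa4l (ENSMUSG00000025757, chromosome 3: 40744495 to 40796103), a relative of Hsph1 best known from testis, was at 69.7, 71.5, 80.4, 63.8 and 65.3 CPM in the females. In the males it was at 53.5, 50.6, 53.9, 63.9 and 59.7 CPM. Male replicate 4 lay just above female replicate 4, so that the ranges overlapped slightly, and the log2 fold change was 0.32 (SE 0.10, edgeR adjusted p = 0.506). Hspa4, the constitutive member, averaged 395 ± 20.4 CPM over the females and 377 ± 22.3 CPM over the males, with a log2 fold change of 0.07 (SE 0.08). The class thus held 3 members with a fold change above 0 and 2 of them at an unadjusted p under 0.05. Female replicate 3 had the highest level of both Hsph1 and Hspa4l among the 10 mice, and male replicate 2 the lowest of both.

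The cold-inducible pair lay on the other side. Cirbp, the cold-inducible RNA-binding protein gene (ENSMUSG00000045193, chromosome 10: 80165985 to 80172786), was at 17.9, 15.6, 14.1, 22.5 and 17.9 CPM in female replicates 1 to 5. In male replicates 1 to 5 it was at 30.4, 44.9, 22.6, 31.2 and 23.7 CPM. All 5 females lay below all 5 males, which was so for 1 of the 69 members and for 0.865% of all genes, with female replicate 4 and male replicate 3 nearly touching. The means were 17.6 ± 3.17 and 30.6 ± 8.89 CPM, and the log2 fold change was -0.79 (SE 0.19, edgeR adjusted p = 0.379). DESeq2 gave an adjusted p of 0.0287. The separation was lost when libraries were scaled by their totals alone or when genes under 1 CPM were removed before scaling, while the fold change stayed below 0 in all 17 alternatives (-0.90 to -0.56).

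Rbm3 (ENSMUSG00000031167, X: 8138975 to 8145880), a closely related RNA-binding protein gene that lies on the X chromosome, was at 706, 545, 382, 611 and 506 CPM in the females. In the males it was at 846, 1057, 713, 700 and 625 CPM. The ranges overlapped by female replicate 1 and the 2 males at 700 and 625 CPM. Its log2 fold change was -0.52 (SE 0.17, edgeR adjusted p = 0.506). Without male replicates 1 and 2 it was -0.31 for Rbm3 (edgeR adjusted p = 0.989) and -0.56 for Cirbp (edgeR adjusted p = 0.399), so the size of both values rested in part on those libraries. The antisense gene Rbm3os shares 94 exon bases with Rbm3, and with no stated strand setting, reads of that stretch cannot be told apart.

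The same mice marked the ends of both genes. Female replicate 3, highest for Hsph1, was lowest of the 10 mice for Cirbp and for Rbm3, and male replicate 2, lowest for Hsph1, was highest for both. Male replicate 3, with the highest Hsph1 among males, had the lowest Cirbp among males, but for Rbm3 the lowest male was replicate 5. Over all genes, male replicate 2 was the highest library for 29.8% and the lowest for 33.3%. For female replicate 3 these shares were 7.06% and 6.58%. No test was made of this. The 189 bases of the Cirbp promoter window that hold no annotated exon, on the plus strand at chr10:80167589-80167777, are shown for comparison with Hsph1. They are upstream of the RefSeq start used, but lie inside the gene bounds given above, which begin at 80165985. The sequence before that GENCODE vM21 start was not searched. Neither GAANNTTC nor TTCNNGAA occurs in the 250 bases before the RefSeq start of Cirbp, so no letters are in capitals.
Cirbp upstream: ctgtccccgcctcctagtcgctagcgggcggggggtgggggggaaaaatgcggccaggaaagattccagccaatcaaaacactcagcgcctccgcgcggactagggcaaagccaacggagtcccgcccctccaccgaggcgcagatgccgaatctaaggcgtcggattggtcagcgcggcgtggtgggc

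**Figure D3:**
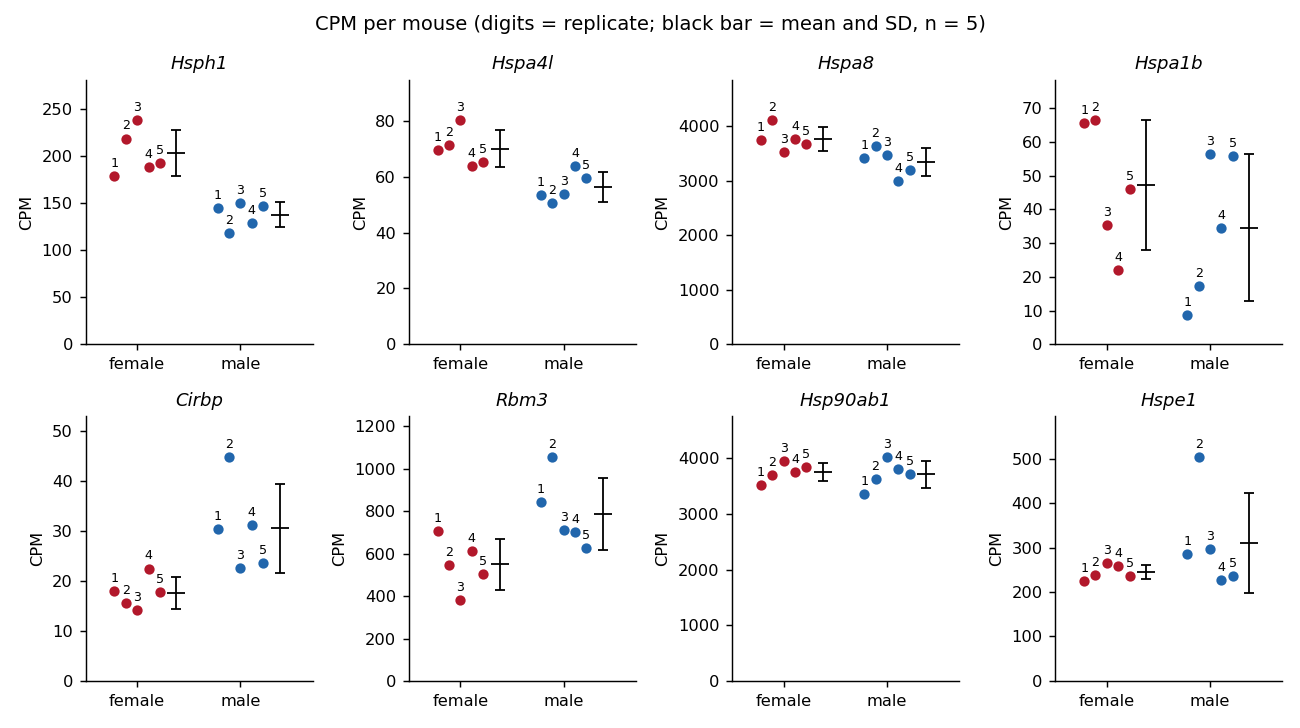
Level in CPM of 8 members in each mouse, females in red and males in blue, with the replicate number at each point and the mean and SD (n = 5) as a black bar; each axis starts at 0. Hsph1 separates all females (179 to 238) from all males (118 to 150), Cirbp separates them the other way, Hspa1b varies widely within each sex, and Hspe1 is set apart by male replicate 2 at 504.

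The HSP70 class was led by Hspa8 (chromosome 9: 40800984 to 40810087), which folds new proteins, uncoats clathrin vesicles and serves chaperone-mediated autophagy. It was at 3757, 4117, 3531, 3771 and 3669 CPM in the females and 3428, 3646, 3470, 3001 and 3200 CPM in the males. Male replicate 2 lay above female replicate 3, and all other males lay below all females. This gave a log2 fold change of 0.17 (SE 0.08, edgeR adjusted p = 0.506), and of 0.22 (SE 0.07, edgeR adjusted p = 0.570) without male replicates 1 and 2. Hspa5, which guards folding in the endoplasmic reticulum, averaged 652 ± 39.3 CPM over the females and 578 ± 71.0 CPM over the males, with a log2 fold change of 0.17 (SE 0.10, edgeR adjusted p = 0.506). Hspa9 was at 601 ± 37.9 and 590 ± 21.1 CPM, a difference smaller than the spread of either sex.

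Hspa1a and Hspa1b, the 2 neighbouring genes of the strictly stress-inducible HSP70 on chromosome 17, varied far more between mice of one sex than between the sexes. Hspa1b was at 65.7, 66.5, 35.5, 22.1 and 45.9 CPM in the females and at 8.68, 17.3, 56.3, 34.6 and 55.9 CPM in the males. Hspa1a followed it, between 17.2 and 59.6 CPM (median 45.4) in the females and between 6.59 and 50.03 CPM (median 31.5) in the males. The SD of log2 CPM of Hspa1b was 0.67 in females and 1.16 in males, against a median over the 69 members of 0.09 and 0.20 and over all genes of 0.16 and 0.31. Between the sexes, the log2 fold change of Hspa1b was 0.45 (SE 0.46, edgeR adjusted p = 0.624), and it was -0.05 without male replicates 1 and 2, the lowest males. These 2 libraries were also the ones with the most mature neutrophil transcripts. The part of that in the result was not tested.

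The transcripts of the pair are nearly alike: of the 100-base windows of Hspa1a, 47.1% occur unchanged in Hspa1b, so reads cannot be assigned with certainty and the 2 genes are not separate observations. Their count ratio, Hspa1a to Hspa1b, lay between 0.758 and 0.990 in all 10 libraries while Hspa1a ranged from 157 to 1383 counts. Gm20481 overlaps 564 exon bases of Hspa1a on the opposite strand. The promoters are shown because the levels of the genes followed each other across the mice. They are identical at 247 of 250 bases, and each holds 1 pair of GAA units of the form GAANNTTC, in capitals, 104 bases before the start. The windows lie on the minus strand at chr17:34972157-34972406 and chr17:34959239-34959488.
Hspa1a upstream: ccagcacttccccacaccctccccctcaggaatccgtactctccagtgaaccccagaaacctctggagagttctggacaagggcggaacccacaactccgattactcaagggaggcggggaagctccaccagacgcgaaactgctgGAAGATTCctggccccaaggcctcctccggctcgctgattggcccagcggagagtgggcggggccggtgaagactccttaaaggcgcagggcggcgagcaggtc
Hspa1b upstream: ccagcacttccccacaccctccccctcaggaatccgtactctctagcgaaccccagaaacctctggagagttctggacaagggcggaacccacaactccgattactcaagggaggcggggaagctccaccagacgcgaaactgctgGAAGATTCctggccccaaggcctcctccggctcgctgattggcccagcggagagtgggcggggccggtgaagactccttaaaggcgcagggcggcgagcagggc

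Of the other tested HSP70 genes, Hspa13 (log2 fold change 0.05), Hspa2 (0.01) and the endothelial relative Hspa12b (0.15) had values within 1 SE of 0. The symbol Hspa14, a ribosome-associated HSP70, stood on 2 rows. The abundant row averaged 96.5 ± 2.35 CPM over the females and 113 ± 19.2 CPM over the males, with male replicate 2 at 144 CPM. The other row, ENSMUSG00000051396, was at 6.15 ± 0.853 and 5.61 ± 0.735 CPM. In GENCODE vM21 the 2 genes overlap by 321 exon bases on the same strand. In all, 9 of 10 tested HSP70 rows had a fold change above 0, but 2 of 10 (Hspa8 and Hspa5) without male replicates 1 and 2, so this count rests on those libraries. The class share of counts was lower in each of male replicates 3, 4 and 5 (0.491%, 0.439% and 0.466%) than in any female. This share is not TMM-scaled, so it is not the same measure as the count of rows. By library totals alone the median log2 fold change of all genes was 0.0614. The share also follows mostly Hspa8, at a mean of 3559 CPM, with Hspa5 next at 615 CPM.

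The HSP90 genes overlapped between the sexes. Hsp90ab1 was at 3522, 3694, 3941, 3758 and 3839 CPM in the females and at 3358, 3625, 4025, 3814 and 3716 CPM in the males, and the lowest and the highest of the 10 mice were both males. Its log2 fold change was 0.02 (SE 0.08, edgeR adjusted p = 0.925). Hsp90aa1 averaged 1682 ± 156 CPM over the females and 1671 ± 214 CPM over the males (log2 fold change 0.01, SE 0.11). Hsp90b1, the endoplasmic reticulum HSP90 (Grp94), was at 324 ± 23.4 and 300 ± 30.8 CPM (log2 fold change 0.11, SE 0.09). Without male replicates 1 and 2 the fold change of Hsp90b1 was 0.22 (edgeR adjusted p = 0.603), with all females above the remaining males, and that of Hsp90aa1 was 0.10. With the SE over all 10 mice, differences of the size seen for Hsph1 are outside 2 SE of the estimate for all 3 genes.

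The mitochondrial pair Hspd1 and Hspe1 lies head to head on chromosome 1 (55077835 to 55088243 and 55088132 to 55091307), and 112 exon bases of the 2 genes overlap on opposite strands. Hspd1 averaged 852 ± 77.1 CPM over the females and 835 ± 55.5 CPM over the males. Hspe1, the HSP10 lid of the chamber, was at 225, 239, 264, 259 and 237 CPM in the females and 285, 504, 297, 228 and 237 CPM in the males. The count ratio of Hspe1 to Hspd1 was 0.597 in male replicate 2 and between 0.274 and 0.339 in the other 9 libraries. For Hspe1 the log2 fold change was -0.34 (SE 0.19, edgeR adjusted p = 0.506), and -0.09 without male replicate 2. A stretch before the start of Hspe1, inside the annotated bounds of Hspd1 near the start of that gene, is shown because it holds the most heat shock units of the promoters printed. The 30 bases of the plus strand at chr1:55088053-55088082 hold 4 alternating units in capitals, which make 3 overlapping pairs.
Hspe1 element: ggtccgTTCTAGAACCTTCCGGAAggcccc

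Heat shock unit pairs were not general among the members. Of 76 member symbols, 63 had a promoter in the RefSeq table. GAANNTTC or TTCNNGAA, both of which read the same on either strand, occurred in the 250 bases before the start of 10 of them: Hsph1, Hspa1a, Hspa1b, Hspe1, Hspb1, Dnaja1, Dnajb6, Dnajc10, Dnajc27 and Cct5. That is 15.9% of member promoters, beside 12.9% of 27025 gene promoters of the same length. A run of 3 units (GAANNTTC followed by NNGAA, either strand, which contains both pairs) occurred in Dnajb6 and Hspe1, 3.17% against 0.400%. The endoplasmic reticulum stress element (CCAAT and CCACG with 9 bases between them, either strand) occurred in Hspa5, Hsp90b1 and Dnajc3, 4.76% against 0.122%, and overlaps any search for the CCAAT box, which it contains. A match describes these letters and no more.

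Among the DNAJA genes, Dnaja1, Dnaja2 and Dnaja3 had log2 fold changes of -0.02, -0.04 and 0.09, each within 2 SE of 0. Dnaja4, a heat-inducible member, was at 18.9, 16.5, 12.6, 12.3 and 11.3 CPM in the females and 9.52, 5.24, 11.6, 12.7 and 13.5 CPM in the males. Female replicates 1 and 2 were its highest and male replicates 1 and 2 its lowest libraries, as for Hspa1b. Its log2 fold change was 0.44 (SE 0.23, edgeR adjusted p = 0.506), and 0.18 without male replicates 1 and 2. Dnajb1 showed the same ends, at 209 and 183 CPM in female replicates 1 and 2 and at 124 and 119 CPM in male replicates 1 and 2, with the other 6 mice between 133 and 172 CPM. Its log2 fold change was 0.18 (SE 0.15, edgeR adjusted p = 0.556), and 0.05 without male replicates 1 and 2.

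Of 11 tested DNAJB genes 8 had a fold change below 0, with a median of -0.03. Dnajb13, a protein of the radial spokes of cilia and sperm tails that shares 305 exon bases with Ucp2 on the opposite strand, averaged 2.73 ± 0.286 CPM over the females and 3.44 ± 0.257 CPM over the males (log2 fold change -0.33, SE 0.15, edgeR adjusted p = 0.506). It rests on 53 to 95 counts per library. Dnajb6, which holds back aggregation of polyglutamine proteins, was at 104 ± 4.67 and 115 ± 12.9 CPM (log2 fold change -0.15, SE 0.09; -0.04 without male replicates 1 and 2). The endoplasmic reticulum members Dnajb9 (-0.02) and Dnajb11 (-0.05) lay near 0.

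The DNAJC class is the largest, with 25 members that all passed the filter, and its median moved with 1 library. Its median log2 fold change was -0.09 (16 of 25 below 0), and -0.00444 without male replicate 2. Dnajc19, a subunit of the motor that pulls proteins into mitochondria, was at 49.0, 49.5, 44.7, 45.0 and 43.2 CPM in the females. It was at 50.4, 101, 52.7, 49.2 and 51.7 CPM in the males, where male replicate 2 stood far above the other 9 mice. Its 178 exon bases shared with Fxr1 on the opposite strand could hold reads of either gene. The log2 fold change was -0.40 (SE 0.19, edgeR adjusted p = 0.506), and -0.14 without that library. Dnajc13, an endosomal protein with a long transcript, went the other way, at 35.9 CPM in male replicate 2 against 61.3 to 91.3 CPM in the other 9 mice. The splicing-associated genes Dnajc8 (-0.23) and Dnajc17 (-0.33) and the histone chaperone Dnajc9 (-0.16) were also highest in male replicate 2, and without it their fold changes were -0.12, -0.10 and -0.07. Dnajc11 (0.11) and Dnajc18 (0.18) had positive values within 2 SE of 0.

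**Figure D4:**
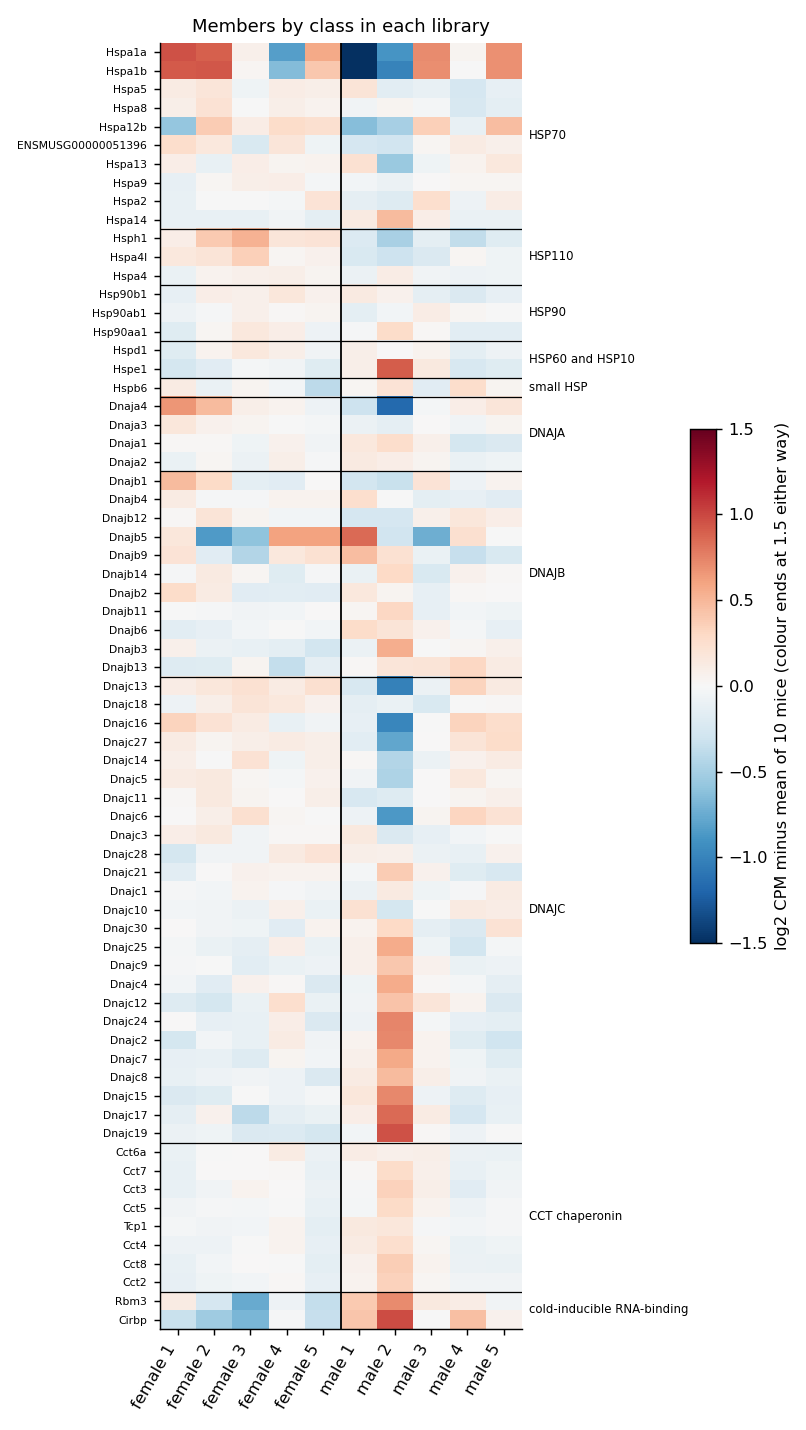
Log2 CPM of each tested member in each library minus its mean over the 10 mice, red for higher and blue for lower, in classes separated by lines; the colour scale ends at 1.5 either way. The column of male replicate 2 stands apart in the DNAJC block, and Hspa1a and Hspa1b vary together within both sexes.

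Male replicate 2 was the highest of the 10 libraries for 31 of 69 members (44.9%, against 29.8% of all genes) and the lowest for 16 (23.2%, against 33.3%). Between its deviation from the other 9 mice and exon length, Spearman's rho was -0.36 across the members (n = 69) and -0.51 across all genes (n = 14663). Across the members other libraries reached a similar size, with rho 0.36 for female replicate 5, -0.34 for male replicate 3 and 0.32 for female replicate 3. These points share 1 library, and genes are not independent replicates, so rho is given as a description. Between the fold change of the sexes and exon length, rho was 0.38 across the members, and 0.28 without male replicate 2. Across all genes it was 0.40, and 0.19 without that library. The part of length in the single values was not tested.

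**Figure D5:**
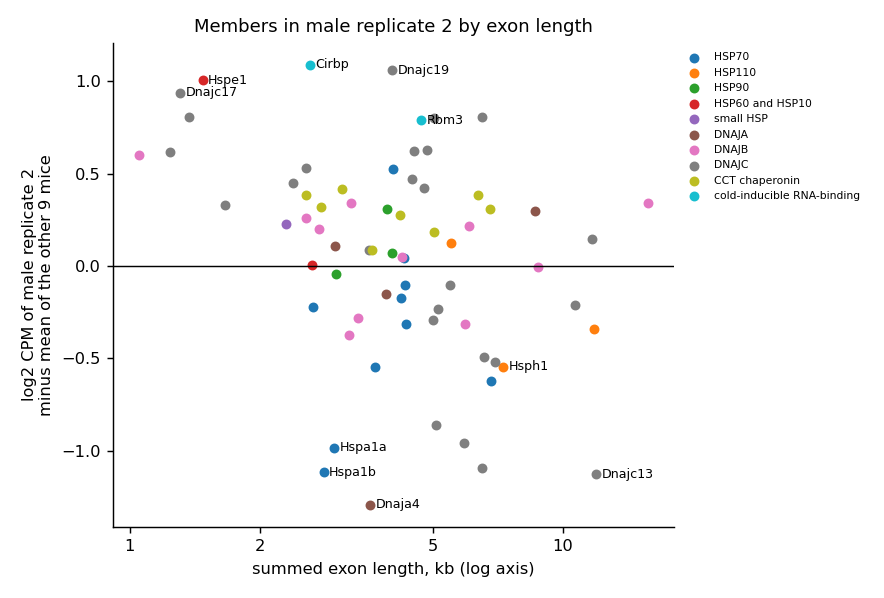
Deviation of male replicate 2 from the mean of the other 9 mice in log2 CPM, against summed exon length in kb on a log axis, for the 69 tested members coloured by class. Short members such as Hspe1 and Dnajc17 lie above 0. Long members lie on both sides, with Dnajc13 and Hspa4l below 0 and Dnajc1 and the longest, Dnajb14, above. Hspa1a, Hspa1b and Dnaja4 are low at moderate length.

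The 8 tested CCT genes varied little between mice. Their median SD of log2 CPM was 0.07 in females and 0.15 in males. All 8 had a fold change below 0 (7 with libraries scaled by totals alone, 6 without male replicates 1 and 2), from -0.14 (Cct2) to -0.03 (Cct6a), each within 2 SE of 0, with a median of -0.09, and of -0.02 without those 2 libraries. Cct2 averaged 599 ± 24.7 CPM over the females and 660 ± 79.4 CPM over the males, and Tcp1, the alpha subunit, at 525 ± 25.8 and 560 ± 39.7 CPM. Male replicate 2 was highest for Cct2 at 798 CPM, for Cct5 at 804 CPM and for Cct8 at 724 CPM. The one tested small heat shock protein gene, Hspb6, averaged 8.71 ± 1.16 CPM over the females and 9.63 ± 1.13 CPM over the males (log2 fold change -0.15, SE 0.13).

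The other genes of the folding network gave 0 calls in edgeR. At an unadjusted p under 0.05 edgeR had 1 higher and 0 lower of 14 HSP70 co-chaperones, 1 and 0 of 12 HSP90 co-chaperones, 0 and 1 of 9 prefoldin and CCT cofactor genes, and 1 and 0 of 17 endoplasmic reticulum chaperone and unfolded protein response genes. There were 0 of 3 HSF regulators, 0 of 6 further HSF1 targets and 0 of 10 mitochondrial chaperones and proteases. Hsf1 itself averaged 58.6 ± 4.25 CPM over the females and 53.7 ± 4.76 CPM over the males (log2 fold change 0.13, SE 0.09). Bag3, an HSF1 target that links HSP70 to autophagy, was at 22.2 ± 1.89 and 18.9 ± 2.06 CPM (0.23, SE 0.10). Fkbp5, an HSP90 co-chaperone that glucocorticoids induce, was at 79.8 ± 7.40 and 63.9 ± 12.3 CPM (0.32, SE 0.14). Hyou1, the HSP110 of the endoplasmic reticulum, was at 237 ± 16.6 and 178 ± 50.8 CPM (0.41, SE 0.19). Each of these had an edgeR adjusted p of at least 0.506. Of the 9 prefoldin and cofactor genes 8 had a fold change below 0, with a median of -0.25, and their summed level was 806 CPM in male replicate 2 against 466 to 557 CPM in the other libraries.

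Values of immediate early, clock, glucocorticoid response and cell type marker genes are given beside these results. In these lists edgeR called 0 genes. All 12 tested immediate early genes had a fold change below 0 (median -0.16), with a summed level of 183 to 266 CPM in females and 243 to 275 CPM in males. Of 15 tested clock genes 9 had a fold change above 0, and Per1, also a glucocorticoid target, averaged 31.9 ± 3.89 CPM over the females and 19.4 ± 4.11 CPM over the males with all females above all males (edgeR adjusted p = 0.285). The 10 glucocorticoid response genes, which include Per1 and Fkbp5, were mixed, with 6 above 0 and 4 below. At an unadjusted p under 0.05 in edgeR, 2 of them were higher and 2 lower in females. In 1 gene all females were above all males, and in 1 all were below. All 10 tested megakaryocyte markers had a fold change above 0 (summed level 1777 to 2339 CPM in females, 1343 to 1600 CPM in males). Of 9 erythroid markers 7 were below 0 (5768 to 9610 CPM and 11247 to 38607 CPM), and all 10 mature neutrophil and all 6 B lineage markers were below 0. These 3 sums were highest in male replicates 1 and 2. They were 38607 and 23647 CPM for erythroid markers (at most 20645 CPM in the other 8 libraries) and 43.4 and 27.8 CPM for B lineage markers (at most 24.5 CPM). Neutrophil markers summed to 260 to 967 CPM in females, and the lowest male was at 211 CPM. At an unadjusted p under 0.05 in edgeR, 7 of 10 megakaryocyte markers were higher in females. Lower were 6 of 9 erythroid, 10 of 10 mature neutrophil and 4 of 6 B lineage markers, where 9.17% of all genes passed in either direction. All females were above all males in 3 megakaryocyte markers, and below in 4 erythroid and 1 neutrophil marker (1.93% of all genes in either direction). No marker in the table was at 0 counts. The part of these in the values of Hsph1, Cirbp and Rbm3 was not tested.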

How the data were processed

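Raw read counts per Ensembl gene were deposited by the authors for 10 libraries, 5 female and 5 male, in 1 table. Alignment and counting tools listed in the submitters' processing notes are STAR and featureCounts, besides DESeq, and the builds listed are mm10 and GRCm38.p6; no version, annotation release or strand setting is given in the sources used here. A second deposited table of normalized values was not used. Of 25178 identifiers 25116 were found in GENCODE vM21 (GRCm38), including all 77 members, which gave coordinates and summed exon lengths. Promoter sequences are RefSeq's (GRCm38.p6), taking the first start site listed for a gene.

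Genes were filtered by filterByExpr, which kept 14674, and scaled by TMM. edgeR 4.0.16 (robust quasi-likelihood test, R 4.3.3) was run over all genes on a design of sex alone, and p-values were adjusted by Benjamini-Hochberg. The SE is the log2 fold change divided by the square root of F. Log2 CPM used a prior count of 2. DESeq2 1.42.0 was an alternative. The procedure was tested on simulated data. Named members are those called, the 10 of smallest p in each direction, the most abundant of each class and a list fixed by name. Of the other lists, up to 2 genes of smallest p were eligible. Members and lists were chosen with earlier results of these data known. Members outside this rule were named after their values were seen, to account for all members. Alternatives were another test, 2 other scalings, 2 other filters, a replicate block and leaving out libraries. Counting error was not separated from PCR copies.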

Additional observations from a re-analysis of the deposited data

Results flagged for a closer look

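Among 86 groups of 5 mice examined for 1 value far from the rest (32 named members and 11 shares of counts, in each sex), 5 stood apart by Dixon's ratio, where chance gives about 4.3. Of these 5 values 4 came from male replicate 2. It was at 101 CPM for Dnajc19 (the other males 49.2 to 52.7 CPM), at 504 CPM for Hspe1 (228 to 297 CPM), at 22.7 CPM for Dnajc17 (10.6 to 13.8 CPM) and at 416 CPM for Hspa4 (362 to 372 CPM). The fifth was female replicate 1 at 359 CPM for Hspa4, below the other females at 398 to 410 CPM.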

How the results depend on the processing

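Of 17 alternatives, 16 called 0 members, and DESeq2 called 2, Hsph1 and Cirbp. The number of members at an unadjusted p under 0.05 was 2 higher and 3 lower in females. Scaled by library totals alone it was 6 higher, with no filter 5 lower, and without male replicates 1 and 2 it was 6 higher. Leaving out 1 library gave 2 to 3 higher and 2 to 7 lower, with 7 lower without male replicate 4 or 5. Members whose sexes did not overlap were 1 above and 1 below. They were 3 and 0 by library totals alone, 2 below with no filter, 2 and 0 with the filter at 1 CPM in 5 libraries, and 5 and 3 without male replicates 1 and 2. Leaving out 1 library gave 1 to 2 above and 1 to 3 below, where fewer mice leave fewer values to overlap. The share of all genes without overlap was computed for the main fit only (1.93%). The counts of the alternatives therefore have no background beside them and are not read as results about the members. The median log2 fold change of all members, -0.02, was 0.0630 by library totals alone (all genes 0.0614). The DNAJC median, -0.09, was -0.0200 by library totals and -0.0134 when male replicates 1 and 2 were left out together; over the fits that left out 1 library it was between -0.11 and -0.00444, the latter without male replicate 2. The cause of these shifts was not tested. Without male replicates 1 and 2 the median of HSP70, 0.14, was -0.03, that of HSP60 and HSP10, -0.16, was 0.00606, and that of CCT, -0.09, was -0.02. Hsph1 was between 0.50 and 0.64 over the 17 alternatives and Hspa4l between 0.24 and 0.39. Same-numbered mice of the 2 sexes did not deviate together (r between -0.30 and -0.00710 across genes, and 0 of 5 females correlated best with the male of the same number). With the replicate number as a block 0 members were called, with 2 higher and 2 lower at an unadjusted p under 0.05 (5.29% of all genes). The fold change of Hsph1 was then 0.56 and that of Cirbp -0.77, each with an edgeR adjusted p of 0.637. At these totals the 8 members that were not tested had too few counts for the filter. What limits the results of the other members was not tested.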
